A study of Anas platyrhynchos with 20 samples.

Results

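Birds are uricotelic: they dispose of nitrogen mainly as uric acid, which is made by building new purine rings and then oxidising them, and the liver is known as a main site of this work. The ring is assembled on phosphoribosyl pyrophosphate (PRPP) in a chain of reactions that ends in inosine monophosphate (IMP), and glutamine, glycine, aspartate and formyl groups supply its atoms. IMP is then taken through inosine and hypoxanthine, or through guanine, to xanthine and uric acid. The genes described here encode the enzymes of that route: PPAT, GART, PFAS, PAICS, ADSL and ATIC, which build IMP; PNP, GDA and XDH, which degrade purines to uric acid; and GLUL, which fixes ammonia as glutamine.

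The genes were taken from the expression table by these 10 names. Of the 10 names, 6 were present as gene symbols (PPAT, ADSL, ATIC, XDH, GDA and GLUL) among the 25117 genes of the table. A further 3 (GART, PAICS and PNP) stood under a locus name only and were matched by gene identifier, so their values are given beside those of the 6. The remaining name, PFAS, is not analysed here. The row of PNP was listed at 0 in all 20 libraries, where a count of 0 allows up to 3 fragments, or 0.0801 to 0.172 FPKM depending on the library. No sequence of these genes was used here.

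RNA-seq was performed on male Runzhou white-crested ducks (Anas platyrhynchos), with 5 libraries in each of 4 groups. The HL and HM groups were liver and breast muscle of ducks fed a basal diet with 2% linseed oil, a source of the n-3 fatty acid alpha-linolenic acid, and the CL and CM groups were liver and breast muscle of ducks fed the same diet with 2% duck oil. By the study's methods the diets were fed for 28 days from 28 days of age, and the ducks were killed at the end of that trial after a fast. The labels give day 28, but the ducks were thus older than 28 days when sampled. The sequenced ducks were those with the highest n-3 fatty acid ratios for the linseed oil groups and those with the lowest for the control groups. The groups therefore differ by that choice as well as by diet. Liver libraries held 15417718 to 16705165 assigned fragments, and those of breast muscle 11852903 to 13432987.

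Values are FPKM, fragments per kilobase of gene, so levels may be compared between genes of a library. They were divided by a size factor for each library (the median over genes of its ratio to a common reference) and not by its depth, and the size factors were 0.659 to 0.985 in the livers, against 1.05 to 1.42 in breast muscle. The 8 hepatocyte markers summed to 138478 to 202064 FPKM in HL and 148960 to 249850 in CL, against 91.3 to 401 in HM and 25.2 to 183 in CM, and the 5 skeletal muscle markers present in the table summed to at most 5.0 FPKM in HL and 2.38 in CL, against at least 32973 in HM and 29440 in CM. The tissues were thus as labelled. One library stood apart in its summed FPKM, HM2, and leaving it out changed no DEG call among the 8 purine and uric acid genes it was run on. In tissue pieces, fewer cells of a type and less RNA per cell cannot be told apart.

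Levels of the pathway in the liver and in breast muscle were compared first. Every gene of the route that was detected had a higher level in the liver than in breast muscle, under linseed oil and under the control diet. A differentially expressed gene (DEG) had an adjusted p below 0.05 by limma, Benjamini-Hochberg adjusted over all genes tested, and differed by more than 1 in either direction on the log2(FPKM + 1) scale. By this rule 6 of the 6 genes found by symbol were DEGs with higher liver levels in HL vs HM, where 19.8% of 10449 genes were. In CL vs CM it was again 6 of 6, against 20.4% of 10529 genes. With the libraries rescaled to the same sum of FPKM, the counts over all genes were 1381 higher and 3415 lower in HL vs HM, instead of 2069 and 2134, and 1208 higher and 4578 lower in CL vs CM, instead of 2145 and 2311. GART and PAICS, found by identifier, were DEGs in the same direction in both comparisons. The comparisons share no library with each other. The study's methods give 10 ducks for the 20 libraries, so liver and muscle share ducks, but not that equal numbers mark the same duck, and the test did not pair them; with the library number as a block, 6 of 6 were again DEGs in each comparison.

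**Figure D1:**
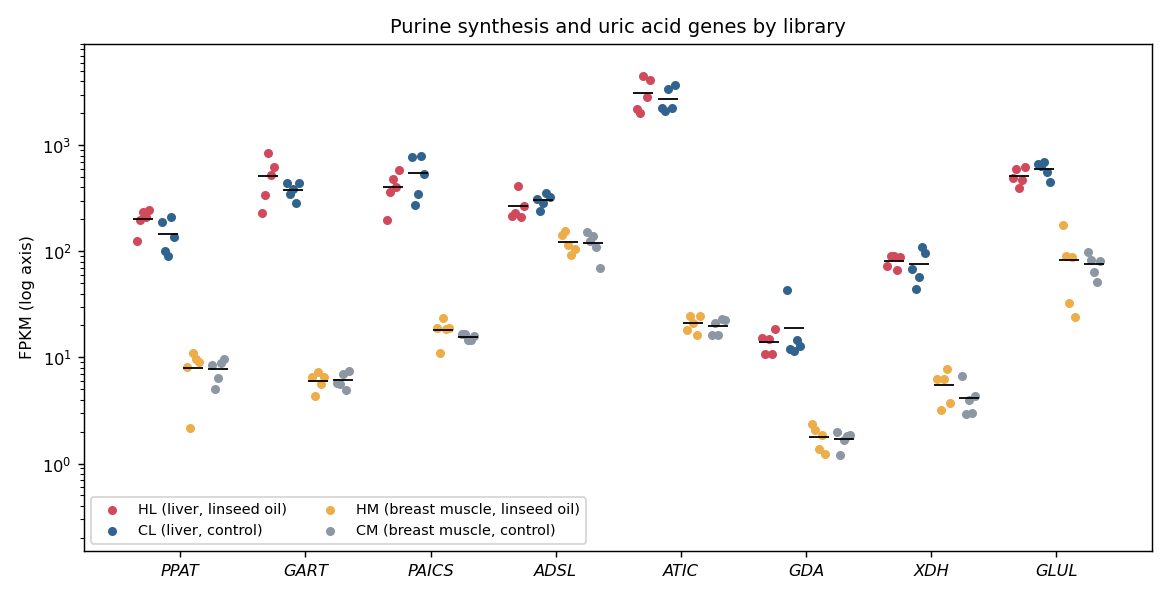
FPKM of 8 genes in each library on a log axis, with 5 points per group and a black line at the group mean, for HL, CL, HM and CM from left to right. ATIC is at 2002 FPKM or more in every liver library and at 24.4 or less in every muscle library, while ADSL shows the smallest distance between the tissues, and the points of the diets overlap within each tissue.

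ATIC, a bifunctional enzyme that adds the last formyl group and closes the ring to IMP, was the most abundant of these transcripts in the liver. It measured 2197, 2002, 4474, 2827 and 4078 FPKM in HL1 to HL5 and 18.3, 24.4, 21.2, 16.3 and 24.3 FPKM in HM1 to HM5. In the control ducks it measured 2244, 2092, 3399, 2250 and 3712 FPKM in CL1 to CL5 and 16.2, 21.1, 16.2, 23.2 and 22.6 FPKM in CM1 to CM5. Every liver library was far above every muscle library, and the liver libraries themselves spread over about a doubling. The log2 fold change was 7.09 ± 0.25 (SE) in HL vs HM (limma, adjusted p = 1.3e-10) and 7.01 ± 0.21 in CL vs CM (adjusted p = 1.4e-11). ATIC ranked 23 among all genes by mean FPKM in HL and 30 in CL, and took 0.501% of the summed FPKM in HL and 0.368% in CL, against 0.00525% in HM and 0.00552% in CM. Log2 fold changes of at least 4 were found for 3.74% of genes in HL vs HM and 4.02% for CL vs CM.

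GART encodes a trifunctional enzyme of early steps of ring assembly. It measured 232, 343, 844, 520 and 627 FPKM in HL1 to HL5, against 6.53, 4.35, 7.24, 5.59 and 6.54 FPKM in HM1 to HM5. It measured 444, 345, 386, 288 and 436 FPKM in CL1 to CL5, against 5.79, 5.59, 6.94, 4.92 and 7.46 FPKM in CM1 to CM5. The tissues did not overlap, and the HL libraries were more scattered than the CL libraries, with a coefficient of variation of 46.8% in HL and 17.2% in CL. The log2 fold change was 6.06 ± 0.30 in HL vs HM and 5.73 ± 0.16 between CL and CM. A neighbouring entry described as the same enzyme overlapped the end of GART by 394 bases on the other strand, and averaged only 1.07 FPKM in HL and 1.14 FPKM in CL, against 0.0451 in HM and 0.123 in CM.

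PPAT, the amidotransferase that commits PRPP to purine synthesis, measured 124, 196, 233, 211 and 243 FPKM in HL1 to HL5, against 8.15, 2.15, 10.9, 9.75 and 9.07 FPKM in HM1 to HM5. In the control ducks PPAT measured 190, 100.9, 90.1, 208 and 135 FPKM in CL1 to CL5, against 8.42, 5.05, 6.43, 8.92 and 9.69 FPKM in CM1 to CM5. The tissues did not overlap, CL2 and CL3 were the low livers, and HM2 was the lowest muscle library. On the log2 scale PPAT was higher by 4.59 ± 0.34 in HL vs HM and by 4.02 ± 0.25 in CL vs CM, and by 4.24 to 4.75 in HL vs HM with any single library left out.

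PAICS, the enzyme that carboxylates the imidazole ring and joins aspartate to it, measured 196, 365, 476, 402 and 578 FPKM in HL1 to HL5, against 18.9, 11.1, 23.3, 18.5 and 18.8 FPKM in HM1 to HM5. In the control ducks PAICS measured 772, 271, 344, 799 and 541 FPKM in CL1 to CL5, against 16.8, 16.5, 14.7, 14.6 and 15.8 FPKM in CM1 to CM5. Liver was again above muscle in every library, and CL2 and CL3 were again the low CL livers. PAICS differed by 4.35 ± 0.28 on the log2 scale in HL vs HM and 4.91 ± 0.28 for CL vs CM. PPAT and PAICS are neighbours on opposite strands, and their gene models overlap by 21086 bases in the table's coordinates; whether counting used strand is not given in the sources used here, so fragments from the overlap cannot be assigned with certainty to either.

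ADSL, the lyase that acts in IMP synthesis and again in making AMP, had the smallest tissue difference. It measured 216, 231, 410, 211 and 270 FPKM in HL1 to HL5, against 143, 157, 115, 91.8 and 106 FPKM in HM1 to HM5. It measured 312, 241, 287, 355 and 325 FPKM in CL1 to CL5, against 151, 124, 141, 109 and 69.9 FPKM in CM1 to CM5. The tissues still did not overlap, as for 26.6% of genes with liver higher in HL vs HM and 27.7% between CL and CM. The log2 difference was 1.10 ± 0.23 in HL vs HM (limma, adjusted p = 0.000916) and 1.38 ± 0.22 in CL vs CM (adjusted p = 8.8e-05). The ADSL call did not hold under rescaling of the libraries: the log2 fold change was 0.57 (adjusted p = 0.00975) in HL vs HM and 0.51 (adjusted p = 0.0570) in CL vs CM after quantile normalization, and 0.94 in HL vs HM without HL3, its highest liver library.

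At the far end of the route, XDH, the molybdenum enzyme that oxidises hypoxanthine to xanthine and xanthine to uric acid, had a lower mean level than each of the IMP-forming genes in all 4 groups. It measured 72.1, 90.8, 90.8, 66.3 and 88.4 FPKM in HL1 to HL5, against 6.20, 3.22, 6.21, 7.85 and 3.75 FPKM in HM1 to HM5. It measured 68.4, 43.9, 57.3, 110 and 96.4 FPKM in CL1 to CL5, against 6.70, 2.91, 3.98, 3.01 and 4.31 FPKM in CM1 to CM5. All liver libraries were above all muscle libraries, with log2 fold changes of 3.72 ± 0.21 in HL vs HM and 3.85 ± 0.26 for CL vs CM. The ratio of ATIC to XDH, both per length, was 38.1 ± 11.45 in HL and 39.7 ± 14.7 in CL (SD, n = 5 each), against 4.50 ± 2.39 in HM and 5.33 ± 2.19 in CM.

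GDA, the deaminase that turns guanine into xanthine, was the lowest of the detected genes in all 4 groups. It measured 15.2, 10.7, 14.8, 10.8 and 18.5 FPKM in HL1 to HL5, against 2.36, 2.05, 1.37, 1.85 and 1.24 FPKM in HM1 to HM5. It measured 43.2, 12.1, 11.54, 14.5 and 12.7 FPKM in CL1 to CL5, against 1.98, 1.2, 1.68, 1.80 and 1.84 FPKM in CM1 to CM5. The value of CL1 stood far above the other CL livers, and the tissues did not overlap with or without it. GDA differed by 2.42 ± 0.18 on the log2 scale in HL vs HM and 2.69 ± 0.30 between CL and CM.

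GLUL, glutamine synthetase, which in birds is known to trap ammonia in liver mitochondria, measured 490, 595, 392, 469 and 627 FPKM in HL1 to HL5, against 176, 90.2, 32.5, 88.9 and 23.8 FPKM in HM1 to HM5. In the control ducks GLUL measured 661, 642, 688, 556 and 447 FPKM in CL1 to CL5, against 99.5, 83.5, 63.9, 51.2 and 81.9 FPKM in CM1 to CM5. Liver was higher throughout, and the HM libraries were the most scattered of the groups, with a coefficient of variation of 73.8% against 24.7% in CM. On the log2 scale GLUL differed by 2.96 ± 0.46 in HL vs HM (limma, adjusted p = 9.5e-05) and 2.98 ± 0.21 in CL vs CM (adjusted p = 3.8e-08). A separate entry described as glutamine synthetase averaged 0.846 FPKM in HL and 0.719 in CL, against 2.35 in HM and 1.45 in CM.

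The order of the levels differed between the tissues. In HL it ran ATIC, GLUL, GART, PAICS, ADSL, PPAT, XDH and GDA, where ATIC, XDH and GDA were each separated from their neighbours and GLUL to PPAT formed a run of overlapping ranges. In CL the order was ATIC, GLUL, PAICS, GART, ADSL, PPAT, XDH and GDA, and the ranges of GLUL, PAICS, GART and ADSL overlapped from one to the next, as did those of PPAT and XDH. In both muscle groups it ran ADSL, GLUL, ATIC, PAICS, PPAT, GART, XDH and GDA. There the ranges of ADSL and GLUL overlapped, PAICS was separated from PPAT, and PPAT, GART and XDH overlapped in turn. ADSL thus led in muscle with 123 ± 26.9 FPKM in HM and 119 ± 31.8 FPKM in CM, but was the fifth in the liver with 268 ± 83.1 FPKM in HL and 304 ± 42.9 FPKM in CL (SD, n = 5 each).

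Transcripts typical of liver were present at low levels in the muscle libraries, and whether they came from liver RNA was not tested. Albumin (ALB) measured 4.72 to 92.9 FPKM there, against 51357 to 144090 FPKM in the liver libraries. Scaled by ALB (the ratio of a gene to ALB in the livers times the ALB of the muscle library), the liver level of each of the 8 genes amounted to at most 12.6% of its level in any muscle library, this maximum being for ATIC, and to a median of 4.08% for ATIC, 1.99% for GART and under 1% for the other 6. Scaled by the sum of the 8 hepatocyte markers, a choice made after the values were seen, the largest share was 25.8% for ATIC, 22.0% for GART, 17.8% for PPAT and 9.25% for PAICS, all in HM2, and without HM2 it was 15.9%, 8.27%, 1.87% and 2.99% in the same order. HM2 had the least ALB of the muscle libraries but the highest marker sum, 401 FPKM, of which APOA1, an apolipoprotein, made up 380 FPKM. For PRPS2, a gene described below, the marker sum gave 16720% of its measured level in HM2 and up to 178% without HM2. Scaled by ALB, the share for PRPS2 reached 356%. None of these can be a true share. The marker-sum shares of HM2 are therefore not estimates of its liver RNA, and the other shares by either scaling are rough.

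**Figure D2:**
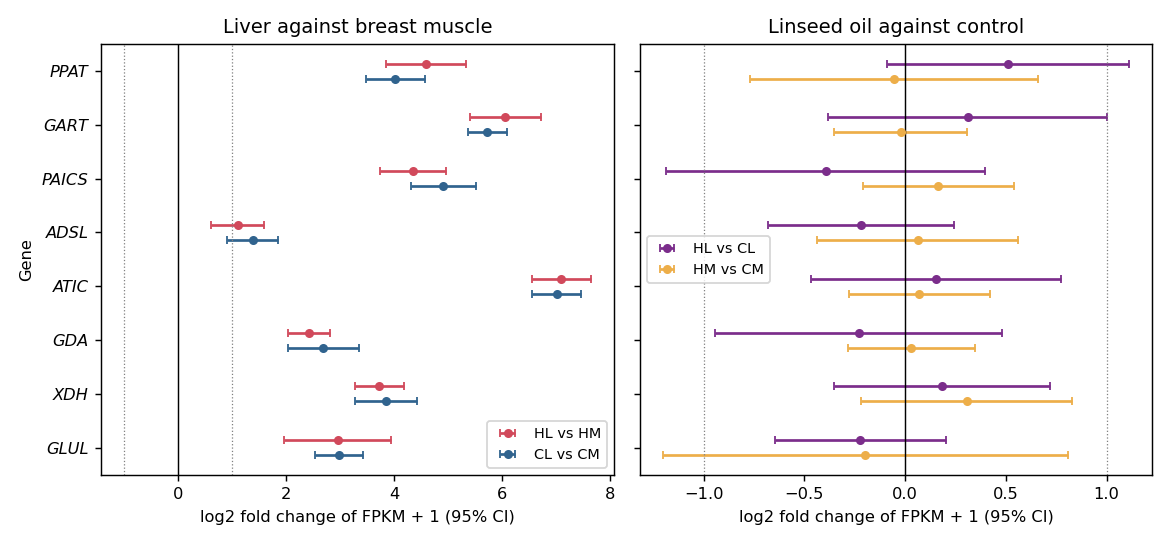
Log2 fold changes of FPKM + 1 with 95% confidence intervals for 8 genes, liver against breast muscle on the left (HL vs HM above CL vs CM) and linseed oil against control on the right (HL vs CL above HM vs CM), with dotted lines at -1 and 1. All tissue intervals lie above 0, from ADSL at 1.10 and 1.38 to ATIC at 7.09 and 7.01, and all diet intervals include 0.

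Whether linseed oil changed the pathway was asked within each tissue. None of the 6 genes found by symbol, nor GART or PAICS, was a DEG in HL vs CL, where 0.126% of 9543 genes were DEGs. The study, with DESeq2 at the same thresholds, reported many more diet DEGs in both tissues. The limma fit used here thus called fewer genes, and a lack of calls is not evidence of no change. None of the 8 had an unadjusted p below 0.05, which 12.3% of all genes had. In HM vs CM it was again 0 of 6, as for all genes (0% of 10148), and none of the 8 reached an unadjusted p below 0.05, against 5.5% of all genes. The diet groups of all 8 overlapped in both tissues, while those of 2.8% of genes in the liver and 1.23% in breast muscle did not. In the same comparisons limma voom on the recovered fragments also called 0 of the 6. The interaction of diet and tissue was past the threshold for none of them, and for 0.00888% of 11256 genes.

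In the liver, with the deposited scaling, PPAT had the largest log2 fold change with diet of the 8 genes. PPAT averaged 202 ± 47.1 FPKM in HL and 145 ± 52.7 FPKM in CL (SD, n = 5 each), a log2 difference of 0.51 with a 95% interval of -0.087 to 1.11 (limma, unadjusted p = 0.0872, adjusted p = 0.490). GART averaged 513 ± 240 FPKM in HL and 380 ± 65.2 FPKM in CL, and PAICS 403 ± 142 FPKM in HL and 546 ± 240 FPKM in CL. Their intervals were -0.38 to 1.0 for GART and -1.19 to 0.40 for PAICS, so a 2-fold difference lay within the intervals of PPAT and PAICS and at the edge of that of GART. For ATIC the log2 fold change in HL vs CL was 0.15 with an interval of -0.47 to 0.77, for XDH 0.18 (-0.35 to 0.72) and for GLUL -0.22 (-0.65 to 0.20). The interval was -0.68 to 0.24 for ADSL and -0.94 to 0.48 for GDA. The values and their order depended on the scaling and on single libraries. After quantile normalization the log2 fold change was 0.78 for ATIC, 0.73 for PPAT and 0.60 for GART, and after rescaling to the same sum, where the median of all genes was 0.20, it was 0.42 for ATIC, 0.77 for PPAT and 0.57 for GART, with none of these past the threshold. PAICS had the larger absolute value when CL2 (-0.61, against 0.40 for PPAT), CL3 (-0.53 against 0.36), HL5 (-0.55 against 0.43) or HL3 (-0.48 against 0.45) was left out.

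In breast muscle the log2 fold changes of the 8 genes lay between -0.20 for GLUL and 0.31 for XDH, with adjusted p of 0.950 or more (limma). GART averaged 6.05 ± 1.12 FPKM in HM and 6.14 ± 1.04 FPKM in CM, and ATIC 20.9 ± 3.60 FPKM in HM and 19.9 ± 3.39 FPKM in CM. The interval was widest for GLUL, -1.2 to 0.81.

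Among the marker sums of liver cell types, those of endothelial cells were separated by diet. The macrophage markers, 6 of 8 found in the table and none at 0, summed to 96.8 to 470 FPKM in HL and 28.2 to 138 in CL, and the 6 of 6 endothelial markers, none at 0, to 36.3 to 48.6 FPKM in HL and 12.5 to 25.7 in CL. The endothelial sums did not overlap between the diets, and 2.8% of single genes did not in HL vs CL. The macrophage sums had medians of 382 FPKM in HL and 39.1 in CL. They overlapped in that HL3, at 96.8 FPKM, lay below CL1, at 138. The sums of hepatocytes, lymphocytes, adipocytes and bile duct also overlapped. The part of these in the diet values of the purine genes was not tested.

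Correlations between the IMP-forming genes over the livers were positive, but no pair passed the test. Over the 10 liver libraries all 10 pairs among PPAT, GART, PAICS, ADSL and ATIC had a positive Pearson r of log2(FPKM + 1), with a median of 0.47 and a range of 0.21 to 0.79. Over the 10 muscle libraries 3 of the 10 pairs had a positive r, and the median was -0.24. Outside those pairs, r in the liver was negative for GLUL with PPAT, GART, ADSL, ATIC and XDH (-0.26 to -0.44). It was also negative for ATIC with GDA (-0.076). Among all 28 pairs of the 8 genes in each tissue, 0 passed an adjusted p of 0.05 in either tissue, and the libraries of a pair share their scaling. The share of positive pairs among other genes was not computed. The highest r in the liver was that of GART and ATIC, 0.79 (permutation p = 0.0054, adjusted p = 0.151 over 28 pairs), with a Spearman's rho of 0.75 (permutation p = 0.0171, adjusted p = 0.352) and an r of 0.69 without HL1 and HL3.

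The correlation of PPAT and PAICS, the neighbouring genes, was lower than that of GART and ATIC when the livers were pooled. The overlap of their gene models on opposite strands applies to every correlation of PPAT and PAICS below, and its part in them was not tested. Pooled over the 10 livers, Pearson's r was 0.61 (permutation p = 0.0662, adjusted p = 0.464 over 28 pairs) and Spearman's rho 0.59 (permutation p = 0.0800, adjusted p = 0.352), and r was 0.52 without CL2 and CL3, the libraries farthest from the median of PPAT. With each diet group centred on its own mean, r was 0.96 (permutation p = 7e-05, not adjusted over the pairs). The centred values were shuffled over all 10 livers and not within each diet. Centring ties the values within a diet group, so this p can be too small. In breast muscle r was 0.79 (permutation p = 0.00764, adjusted p = 0.155) and rho 0.56 (permutation p = 0.0954, adjusted p = 0.382), and r was 0.63 without HM2 and CM2, where the exact permutation p was 0.0934. The muscle correlation thus rested in part on these libraries. Over the 10 muscle libraries the liver transcript ALB had an r of 0.80 with PPAT and 0.61 with PAICS, and HM2 and CM2 had 4.72 and 5.53 FPKM of ALB; the part of this in the correlation was not tested.

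Relative to PAICS, the livers sampled here held more PPAT in the linseed oil group. The ratio of PPAT to PAICS was 0.634, 0.537, 0.490, 0.525 and 0.421 in HL1 to HL5, against 0.247, 0.372, 0.262, 0.261 and 0.250 in CL1 to CL5. Every HL library was above every CL library, with means of 0.521 ± 0.0776 in HL and 0.278 ± 0.0527 in CL (SD, n = 5 each). The log2 ratio was higher in HL by 0.91 (exact permutation test, two-sided, p = 0.00794, the smallest this design allows), and by 0.84 to 1.02 with any single library left out. This ratio was chosen after the values were seen, and choosing a ratio whose groups separate fixes its p at this smallest value. Among all 28 ratios of the 8 genes, that of PPAT to PAICS was the only one whose diet groups did not overlap in the liver. Over single genes, 2.8% did not overlap in HL vs CL, and the share for ratios of other gene pairs was not computed. The adjusted p of the ratio of PPAT to PAICS was 0.222 by the same permutation test. A single ratio at the smallest p of this design cannot pass the correction over 28 ratios. Neither p thus decides whether the ratio differs by diet.

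In breast muscle the same ratio was 0.431, 0.194, 0.469, 0.528 and 0.482 in HM1 to HM5, against 0.502, 0.307, 0.438, 0.611 and 0.614 in CM1 to CM5. The diet groups overlapped, and the log2 ratio was lower in HM by a difference of -0.27 (exact permutation test, two-sided, p = 0.484). The overlap of the gene models on opposite strands applies to this ratio in both tissues, and its part in the ratio was not tested.

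**Figure D3:**
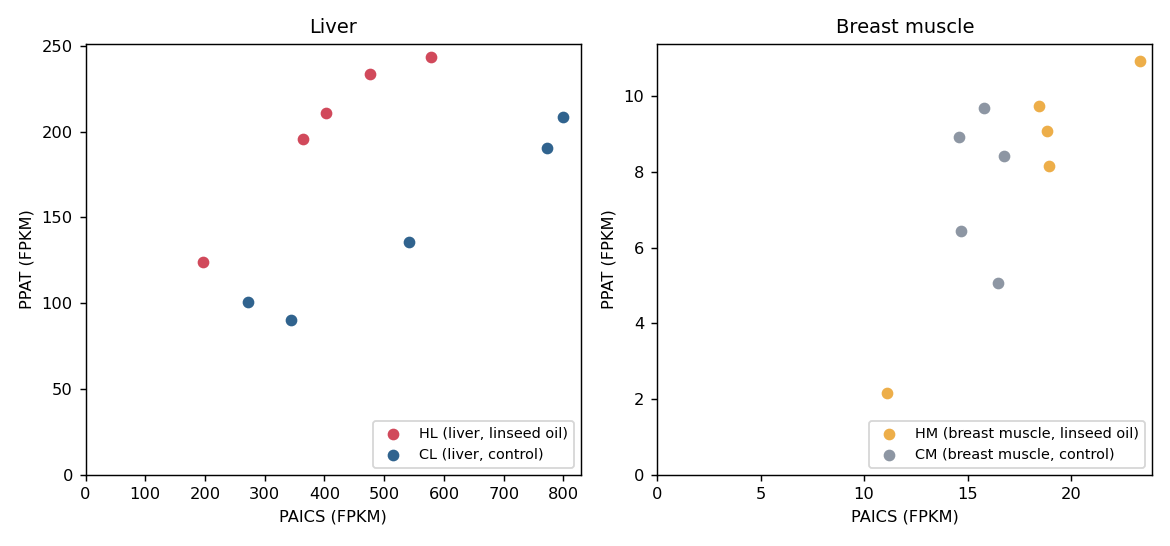
FPKM of PPAT against FPKM of PAICS in each library, on the left the livers (HL and CL) and on the right the breast muscles (HM and CM). In the liver the HL points lie above the CL points at the same level of PAICS, with ratios of 0.421 to 0.634 in HL and 0.247 to 0.372 in CL, while in muscle the groups mix.

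Genes whose pattern over the 10 livers was most like the mean of PPAT, GART, PAICS, ADSL and ATIC were sought among 8568 tested genes with a symbol, as a description. They were HIBADH, an enzyme of valine breakdown, with r = 0.96, OAT, ornithine aminotransferase, with r = 0.92, PRPS2, a PRPP synthetase, with r = 0.89, MCCC2, an enzyme of leucine breakdown, with r = 0.89, and REG4, a secreted lectin, with r = 0.88. HIBADH measured 33.3 ± 10.4 FPKM in HL and 32.8 ± 6.27 FPKM in CL. For XDH the most similar were BLOC1S1 (r = 0.89), CDK2AP1 (0.85), HNRNPDL (0.84), CEP112 (0.81) and DERL3 (0.81).

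The reactions around the route were described from lists of other genes. Over all genes, 19.8% were DEGs with higher and 20.4% with lower liver levels in HL vs HM. In CL vs CM these shares were 20.4% and 21.9%, and they stand beside the counts of every list below. Of the genes for PRPP supply, 5 of 9 tested were higher in the liver and 1 lower, in both tissue comparisons. PRPS2, which makes PRPP from ribose 5-phosphate, had a mean above that of ATIC in the liver, with 4000 ± 1565 FPKM in HL, 4398 ± 1118 in CL, 3.08 ± 3.29 in HM and 3.38 ± 3.10 in CM. PRPS2 was higher in liver by 10.2 ± 0.50 (SE) on the log2 scale in HL vs HM and 10.3 ± 0.45 between CL and CM. Its muscle level ran 0.0532 to 8.40 FPKM, lowest in HM2, CM2 and CM3, the libraries with least ALB, and the liver level scaled by ALB came to a median of 39.9% of it (81.3% scaled by the sum of hepatocyte markers). The paralogue PRPS1 was lower in the liver, with log2 fold changes of -1.57 in HL vs HM and -1.62 for CL vs CM, and TKT and PGD of the pentose phosphate route were higher, TKT by 3.23 in HL vs HM and 3.72 between CL and CM, PGD by 2.20 and 2.58 in the same order.

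Of the genes that provide glycine and formyl groups, 12 of 17 tested were higher in the liver and 2 lower in each tissue comparison. Their median log2 fold change was 4.41 in HL vs HM and 4.97 for CL vs CM, beside 0.01 and 0.02 over all genes in the same order. The counts and medians include genes that passed the filter on low values through the liver alone. Among these, FTCD reached at most 0.181 FPKM in HM and 0.163 in CM, and GLDC 0.190 in HM and 0.187 in CM. PHGDH, the enzyme that starts serine synthesis, averaged 858 FPKM in HL and 993 in CL, against 2.29 in HM and 2.45 in CM, with log2 fold changes of 8.0 ± 0.37 in HL vs HM and 8.16 ± 0.42 between CL and CM. PSPH, which completes serine synthesis, averaged 4018 FPKM in HL and 4456 in CL, against 17.7 in HM and 16.1 in CM. SHMT1, which turns serine into glycine and a one-carbon unit, averaged 247 FPKM in HL and 256 in CL, against 0.577 in HM and 0.989 in CM. Scaled by ALB, the liver level came to a median of 14.1% of the muscle level for PHGDH, 11.8% for SHMT1 and 8.04% for PSPH. The largest such shares were 42.2%, 45.6% and 17.2% in the same order, and they are rough. ALDH1L2, a mitochondrial enzyme of folate metabolism, was lower in the liver, with log2 fold changes of -2.92 in HL vs HM and -1.89 for CL vs CM. The mitochondrial enzyme MTHFD2 was a DEG with lower liver levels in HL vs HM, at -1.65. In CL vs CM it was also lower, at -0.94 (limma, adjusted p = 0.00228), short of the fold threshold.

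XDH needs the molybdenum cofactor. Of the 7 genes for this cofactor and its other enzymes, 5 were higher in the liver in HL vs HM and 6 for CL vs CM, with none lower. MOCOS, which sulfurates the cofactor for XDH, averaged 36.4 FPKM in HL and 31.9 in CL, against 2.86 in HM and 2.32 in CM. The log2 fold change of MOCOS was 3.30 in HL vs HM and 3.21 between CL and CM, and that of MOCS1, which makes the precursor of the cofactor, 2.46 in HL vs HM and 2.55 for CL vs CM. SUOX, sulfite oxidase, was a DEG in CL vs CM, at 1.82, and not in HL vs HM, at 0.85; the interaction was not past the threshold for any of these genes.

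**Figure D4:**
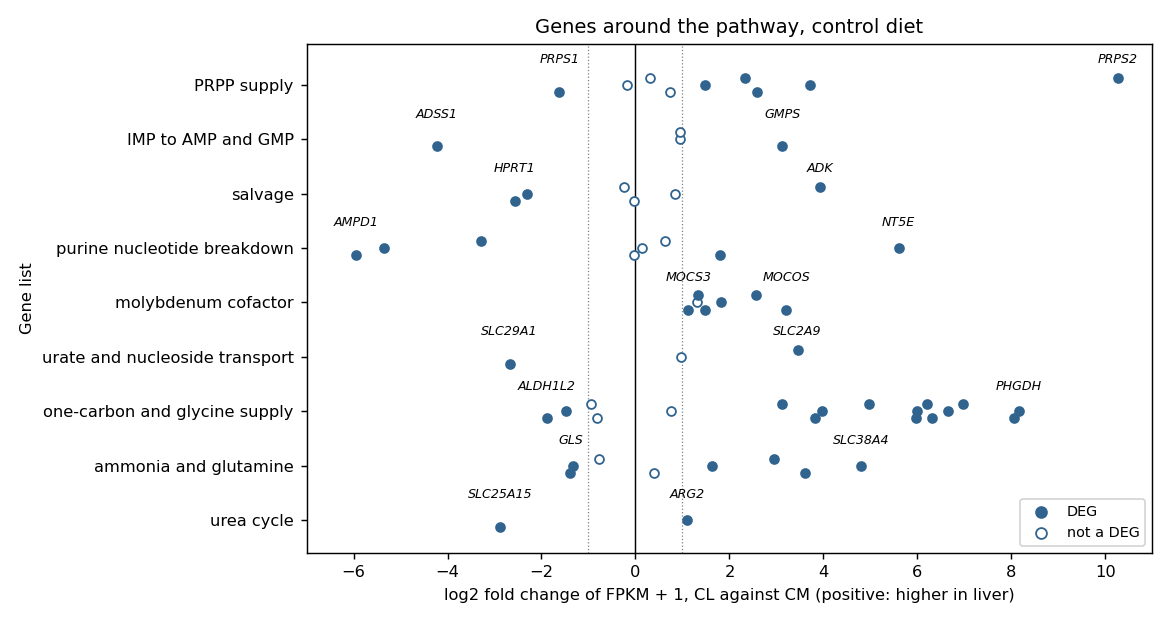
Log2 fold change of FPKM + 1 in CL against CM for genes of 9 lists around the pathway, filled where the gene was a DEG and open where not, with the lowest and highest gene of each list named and dotted lines at -1 and 1. The list for one-carbon and glycine supply lies mostly right of 0 up to PHGDH at 8.16, PRPS2 is the farthest point at 10.3, and AMPD1 the lowest at -5.95.

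Breast muscle had the higher levels of AMPD1 and ADSS1, enzymes of the purine nucleotide cycle, in which AMP is deaminated to IMP and made again. AMPD1, muscle AMP deaminase, averaged 0.323 FPKM in HL and 0.392 in CL, against 82.1 in HM and 85.6 in CM, with log2 fold changes of -5.94 ± 0.20 in HL vs HM and -5.95 ± 0.17 between CL and CM. ADSS1, the muscle adenylosuccinate synthase, averaged 3.64 FPKM in HL and 3.28 in CL, against 81.1 in HM and 78.7 in CM, with log2 fold changes of -4.12 and -4.23 in HL vs HM and CL vs CM. ADSL, described above, is the third enzyme of this cycle. The cytosolic nucleotidases NT5C1A and NT5C3A were also higher in muscle, while NT5E, the surface nucleotidase that makes adenosine from AMP, was higher in liver by 5.70 in HL vs HM and 5.60 for CL vs CM. Over the breakdown list 2 of 8 genes tested were higher in liver and 3 lower, in each tissue comparison. Over all genes, 19.8% were higher and 20.4% lower in HL vs HM, and 20.4% and 21.9% in CL vs CM, so these counts are not read as a trait of the list.

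Among salvage genes, ADK, which returns adenosine to AMP, was higher in the liver by 3.90 in HL vs HM and 3.93 between CL and CM, with means of 496 FPKM in HL and 440 in CL, against 32.7 in HM and 27.6 in CM. HPRT1, which returns hypoxanthine and guanine to nucleotides, was lower in the liver (log2 fold changes of -2.81 in HL vs HM and -2.57 for CL vs CM), as was ADA, adenosine deaminase (-2.21 and -2.32 in the same order). The other 3 of the 6 salvage genes were not DEGs. Of the 4 genes tested that take IMP to AMP and GMP, 2 were higher and 1 lower in liver in HL vs HM, and 1 higher and 1 lower in CL vs CM. The shares over all genes were 19.8% and 20.4% in HL vs HM, and 20.4% and 21.9% in CL vs CM. GMPS, which makes GMP, was higher in the liver, by 2.85 in HL vs HM and 3.12 between CL and CM.

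For transport, 3 of 7 genes in the table passed the filter on low values in each tissue comparison. SLC2A9, a urate transporter, averaged 15.8 FPKM in HL and 14.6 in CL, against 0.502 in HM and 0.434 in CM, and its log2 fold change was 3.48 in HL vs HM and 3.45 for CL vs CM. SLC29A1, a nucleoside transporter, was lower in the liver, with log2 fold changes of -3.09 in HL vs HM and -2.68 for CL vs CM. Of the 8 genes handling ammonia and glutamine, 3 were higher and 1 lower in liver in HL vs HM, and 4 higher and 2 lower in CL vs CM. The shares over all genes were 19.8% and 20.4% in HL vs HM, and 20.4% and 21.9% in CL vs CM. GLUD1, glutamate dehydrogenase, and the amino acid transporters SLC38A3 and SLC38A4 were DEGs with higher liver levels in both comparisons, and GOT1, an aspartate aminotransferase, was lower in the liver in both.

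Genes of the urea cycle, the other route of nitrogen disposal, were listed together with uricase, and 3 of 6 in the table passed the filter on low values in HL vs HM (1 higher in liver, 1 lower) and 2 of 6 in CL vs CM (1 higher, 1 lower). CPS1, its entry enzyme, averaged 0.0226 FPKM in HL and 0.0437 in CL, and OTC was listed at 0 in every HL and CL library. The uricase entry, the enzyme that in many mammals degrades urate, was listed at 0 in all 10 liver libraries and had at most 1 fragment in any muscle library. ASS1 was scattered, at 0.732 to 28.8 FPKM in HL (median 4.66) and 0.405 to 14.9 in CL (median 2.91), and ARG2 averaged 7.65 FPKM in HL and 9.28 in CL.

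No gene of these lists was a DEG in HL vs CL or in HM vs CM. Nearest to it in the liver was MTHFD2, at -1.01 ± 0.21 on the log2 scale in HL vs CL (limma, unadjusted p = 0.000496, adjusted p = 0.0894), averaging 4.19 FPKM in HL and 9.84 in CL. In a limma fit of all 20 libraries together, MTHFD2 was a DEG in HL vs CL (-1.01, adjusted p = 0.0184). ASNS, asparagine synthetase, was too (-1.18, adjusted p = 0.0371). That fit called 83 of 9543 genes in HL vs CL, against 12 in the fit of the liver libraries alone. In the liver fit ASNS had an adjusted p of 0.197 (limma). It ran 2.30 to 3.39 FPKM in HL and was scattered in CL, at 3.74 to 17.3 FPKM. Of the proliferation genes, 13 were tested in each comparison. In HL vs HM 0 were higher and 2 lower in the liver, and in CL vs CM 1 was higher and 3 lower. Over all genes, 19.8% were higher and 20.4% lower in HL vs HM, and 20.4% and 21.9% in CL vs CM.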

How the data were processed

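The authors deposited 1 table of FPKM values, made after alignment with HISAT2 2.0.5 (per the submitters' processing notes) of poly-T purified mRNA; the study's methods give the ZJU1.0 assembly of the duck as the genome, and the strand of counting is not given in the sources used here. FPKM times gene length was a whole multiple of 1 step for 100% of values (tolerance 0.02 fragments), which gave the fragments per gene. The deposited values were already scaled by median-of-ratios size factors and were not scaled again. Of the gene identifiers, 20868 matched a RefSeq gene table of the Pekin duck telomere-to-telomere assembly by IASCAAS, used for names only.

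Groups were compared with limma 3.58.1 (R 4.3.3; lmFit, eBayes with trend) on log2(FPKM + 1), for genes with FPKM of at least 1 in at least 5 fitted libraries: 10 libraries per comparison, 20 for the interaction. SE and 95% intervals are limma's. The test was checked on simulated data with planted changes larger than the diet differences described here, so the check does not cover differences of that size. Permutation tests of correlations used 100000 resamples. The 20 libraries came from 10 ducks; the sources do not say that equal numbers mark the same duck, and libraries were not paired. Named genes were the 10 names, list genes that were DEGs in a diet comparison or among the 3 largest in each direction in CL vs CM, and the 5 most similar in pattern; MTHFD2, ASNS, MOCS1, SUOX, PGD, GMPS, ADA, ALB and the urea cycle genes were named, where outside this rule, after their values were seen. One gene that the rule would name is not reported here. The members and lists were chosen with earlier results of these data known. Figures used matplotlib 3.10.9 in Python 3.11.15.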

Additional observations from a re-analysis of the deposited data

Results flagged for a closer look

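GDA in CL1, at 43.2 FPKM, lay far above the other CL livers, which measured 11.54 to 14.5 FPKM; the gap was 0.907 of the group's range, past Dixon's critical value for 5 libraries. It was 1 of 32 groups examined in this way, and chance flags about 1 in 20. CL1 also had the highest macrophage marker sum of the CL livers, 138 FPKM against 28.2 to 53.1 FPKM, and the part of this in the GDA value was not tested. Without CL1 the log2 fold change of GDA in HL vs CL was 0.11, against -0.23 with it, and neither passed the threshold.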

How the results depend on the processing

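The alternatives were other pseudocounts, filters, scalings and fits, voom on recovered fragments, no fold threshold, a replicate block, and leaving out single libraries. In both diet comparisons and the interaction the calls among the 6 genes stayed at 0 in all of them, the replicate block included. In both tissue comparisons 6 stayed DEGs, the replicate block included, except that ADSL was lost, leaving 5, under quantile normalization (0.57 in HL vs HM, 0.51 in CL vs CM), under rescaling to the same sum (0.43, adjusted p = 0.0465, in HL vs HM; 0.34, adjusted p = 0.160, in CL vs CM) and without HL3. Rescaling to the same sum moved the median of all genes to 0.20 in HL vs CL, 0.26 in the interaction, -0.55 in HL vs HM and -0.84 for CL vs CM. Correlations of the deviations of same-numbered libraries from their group means ran from -0.15 to 0.36, with 9 of 20 above 0.1. Matched among 5 libraries each, 9 of 20 libraries matched their own number best. Only liver and muscle of one diet can come from the same duck, and there it was 2 of 5 for HL and HM and 3 of 5 for CL and CM. These values do not settle whether equal numbers mark the same duck. Over single libraries left out, the count was 5 to 6 in HL vs HM, 6 in CL vs CM, and 0 in the others.

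Signs turned only where the log2 fold change was small. In HL vs CL quantile normalization gave 0.074 for ADSL and 0.11 for GLUL, and the same sum 0.044 for ADSL, 0.013 for GDA and 0.041 for GLUL. In HM vs CM quantile normalization gave -0.011 for ADSL, and the same sum -0.049 for ADSL, -0.035 for ATIC and -0.037 for GDA. In the interaction quantile normalization gave 0.074 for ADSL and 0.44 for GLUL, and the same sum 0.093 for ADSL, 0.20 for XDH, 0.054 for GDA and 0.35 for GLUL. With single libraries left out, GDA ran -0.35 to 0.11 in HL vs CL; in HM vs CM PPAT ran -0.19 to 0.29, GART -0.087 to 0.073, ADSL -0.12 to 0.16, GDA -0.042 to 0.10 and GLUL -0.55 to 0.15; and in the interaction ATIC ran -0.067 to 0.22, XDH -0.29 to 0.033, GDA -0.38 to 0.077 and GLUL -0.38 to 0.33. The correlation of PPAT and PAICS was 0.96 in the livers with diet groups centred, and 0.63 in muscle without HM2 and CM2. The ratio of PPAT to PAICS, log2, differed by 0.84 to 1.02 in HL vs CL and by -0.43 to -0.010 in HM vs CM. The cause of these shifts was not tested. Over all genes, DEGs in HL vs CL numbered 12, against 83 with all 20 libraries in one fit and 0 with the replicate block.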
